A study of Mus musculus with 38 samples.

Results

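Gene expression was compared between 18 liver arrays of mice grouped by the digit at the front of the tag in each sample title, out of 38 arrays in the series. All mice were of the inbred strain C57BL/6J and received either haloperidol, a dopamine receptor blocker used as an antipsychotic, from slow-release pellets or placebo. Liver and whole brain were dissected after 30 days and snap-frozen. Each tag is a digit from 1 to 4 followed by a letter. The labels do not state what the digit or the letter marks, and they give no age, housing, time of day or array date. A digit group therefore cannot be told apart from anything else its arrays share, handling and array processing included.

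All 4 digits held livers of both treatments. Digit 1 comprised the haloperidol livers 1B and 1R and the placebo livers 1L, 1N and 1T. Digit 2 comprised the placebo liver 2B and the haloperidol livers 2L, 2N and 2T. Digit 3 comprised the haloperidol livers 3B and 3R and the placebo livers 3L, 3N and 3T. Digit 4 comprised the placebo livers 4B and 4R and the haloperidol livers 4L and 4N. Treatment was thus spread over the digits but not evenly, and it was a covariate in the main gene tests between digits. Ranges, means with SD, counts of livers lying apart and flags of outlying livers are not adjusted for treatment. Each array is from 1 mouse per the series' design text. Levels are given on the log2 scale as the authors normalized them, and a difference of 1 log2 unit is a 2-fold difference. Where the arrays of a digit are listed, they follow the order of the letters B, L, N, R and T.

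Several groups of liver genes described below answer to known signals. The unfolded protein response is set off when unfolded protein builds up in the endoplasmic reticulum, and its sensors raise transcription factors such as Xbp1 and Atf4, which raise chaperones, protein disulfide isomerases and degradation factors. The circadian clock is a feedback loop in which Arntl pairs with Clock or Npas2 to drive the Per, Cry and Nr1d genes, whose products repress it. In liver the clock, feeding, glucocorticoids and growth hormone together set the daily level of many metabolic genes.

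The tissue label was borne out by markers. Alb, the albumin gene, lay between 13.13 and 13.27 on all 18 liver arrays, and Snap25, a synaptic gene, between 2.92 and 4.71. Array medians over all probes were 4.70 to 4.83 in digit 1 and 4.84 to 4.99 in digit 2, which did not overlap, and 4.70 to 5.05 in digit 3 and 4.79 to 4.89 in digit 4, which overlapped both (p = 0.224 and adjusted p = 0.374, two-sided exact permutation of digits within treatment over 38102400 arrangements). A principal component analysis of the tested genes put 27.9% of the variance on its first component. Its score lay between -22.1 and -11.8 in the 5 digit 1 livers and between 1.74 and 37.9 in the 4 digit 2 livers, with the digit 3 livers from -20.6 to 13.6 and the digit 4 livers from -7.06 to 10.3. Digits 1 and 2 did not overlap on this score, and digit 3 overlapped every other digit. The difference between digits had an exact permutation p of 0.0149, which was 0.0747 after adjustment over the 5 array measures. Correlations between arrays were 0.969 to 0.990 within a digit and 0.964 to 0.987 between digits.

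**Figure D1:**
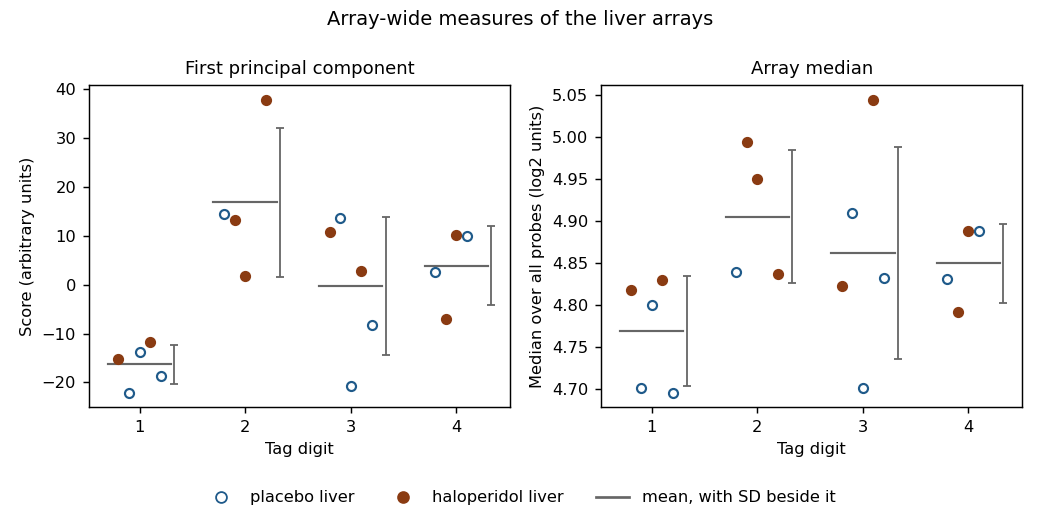
Score on the first principal component (left, arbitrary units) and median over all probes (right, log2 units) of each liver array by tag digit; open points are placebo livers, filled points haloperidol livers, and grey lines the group mean with its SD. The digit 1 livers sit between -22.1 and -11.8 on the component and the digit 2 livers between 1.74 and 37.9. The array medians of digits 1 and 2, at 4.70 to 4.83 and 4.84 to 4.99, are also apart, by less than the spread inside either digit.

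Of 12547 genes tested, 139 (1.11%) differed between the 4 digits past an adjusted p of 0.05 in limma's moderated F test, and 2561 (20.4%) had an unadjusted p under 0.05. Among the 139, the digit farthest from the other 3 was digit 1 for 98 genes (46 higher and 52 lower), digit 2 for 20, digit 4 for 19 and digit 3 for 2. The fitted digit levels of these genes spanned a median of 0.80 log2 units and at most 1.98, against a median of 0.27 over all genes tested, and 40 genes spanned over 1. All 5 digit 1 livers lay above or all below every other liver for 46 of the 139 genes, against 127 (1.01%) of all genes tested. For digit 2 these counts were 11 and 33 (0.263%), for digit 3 they were 0 and 1 (0.00797%), and for digit 4 they were 1 and 13 (0.104%). The 139 genes were picked by the F test on these same livers. Their wider span and greater separation therefore follow from that choice and are no further result.

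Set against the mean of the other 3 digits, digit 1 differed in 767 genes (6.11%), of which 356 (2.84%) were higher and 411 (3.28%) lower. The median size of these differences was 0.47 log2 units, and 24 were over 1. Digit 2 lay at the opposite end of the 4 digits for 586 of the 767 genes (76.4%), digit 4 for 120 and digit 3 for 61. The same share over all genes tested was not counted, so 76.4% cannot be read as particular to these calls. The balance of higher and lower calls followed the scaling. With 46.4% of the calls higher in the values as deposited, the share was 81.5% of 1143 calls after each array's median was subtracted and 60.1% of 1022 calls after quantile normalization of the liver arrays. The comparison of digits 1 and 2 alone gave 1050 genes (8.37%; 512 higher and 538 lower in digit 1), that of digits 1 and 4 gave 57 (0.454%), and that of digits 1 and 3 gave 4 (0.0319%). Without digit 1, the other 3 digits gave 0 genes in the F test, with 790 at an unadjusted p under 0.05. With the array median as a further covariate, chosen after seeing the data for the digit 1 comparison, the F test gave 23 genes and the digit 1 comparison 60. The array medians of digits 1 and 2 did not overlap, although the digits did not differ past the threshold in this measure (exact permutation p = 0.224). With the covariate the digit 1 differences of Fkbp5, Cyp17a1 and Lcn2 were 1.01, 1.32 and 1.91, close to or above those given below. Those of Socs2, Snord14e, Osgin1, Mir421 and Cirbp were 0.97, -0.55, -1.12, -0.98 and -0.80, smaller in size than those below. The differences of the genes given here thus moved both ways, and the balance over all calls was not counted. The part of the array median in the digit 1 differences was not tested beyond that fit.

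The counts depended on single livers. In the F test they fell to 29, 34, 41, 33 and 45 without 1B, 1L, 1N, 1R and 1T in turn, and to 43, 56 and 77 without 2B, 2L and 2T. Without 4B, 4N and 4R they were 79, 92 and 77. They rose to 236, 225 and 245 without 3B, 3L and 3N, to 398 without 4L and to 545 without 2N. The digit 1 count fell to 210, 159, 309, 94 and 284 without each digit 1 liver in the same order and to 327 without 4R, and rose to 1290 without 2N, 1202 without 3N and 1206 without 4L. Leaving out 2T and 1L, the livers at the ends of the first component, chosen after seeing the data, left 9 genes in the F test. In placebo livers alone the F test gave 0 genes (1743 at an unadjusted p under 0.05), and in haloperidol livers alone 0 (666 unadjusted), with 9 arrays in each fit.

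**Figure D2:**
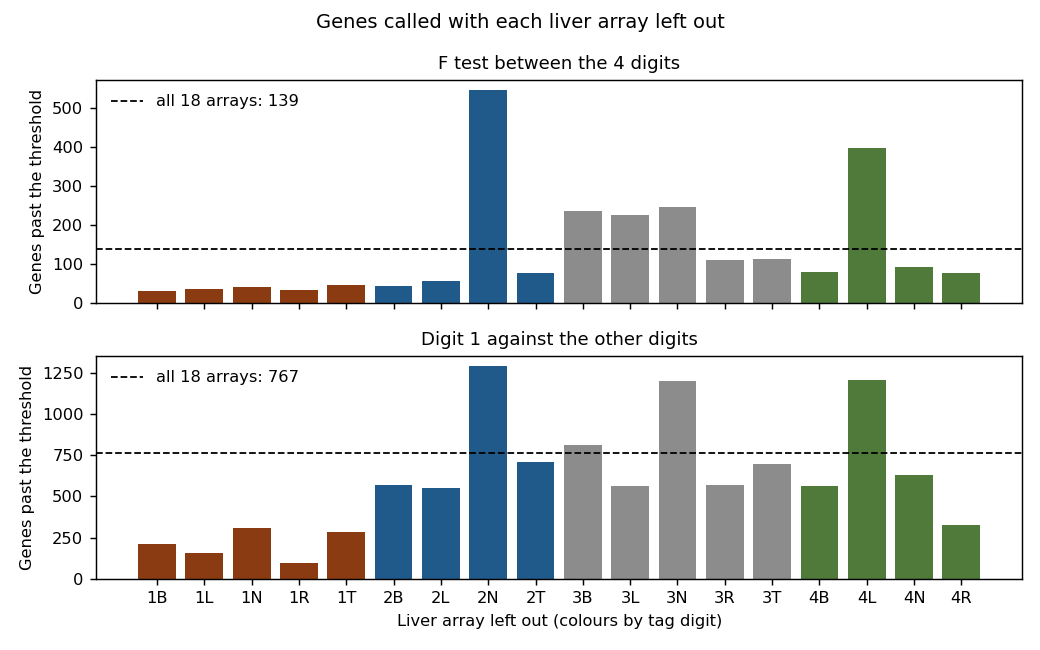
Number of genes past an adjusted p of 0.05 (vertical axes, from 0) when each liver array, named on the horizontal axis, was left out, for the F test between digits (upper) and for digit 1 against the other digits (lower); bars are coloured by tag digit and dashed lines mark all 18 arrays. The F test count was 139 with all arrays, 29 to 45 without any 1 of the digit 1 livers, 545 without 2N and 398 without 4L.

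Pfkfb3 and Lpin1, genes of fuel metabolism, were lowest in digit 2. Pfkfb3, whose fitted digit levels spanned 1.98 log2 units, encodes an enzyme that makes fructose 2,6-bisphosphate, an activator of glycolysis. The digit 1 livers had Pfkfb3 at 8.18, 8.28, 8.47, 8.07 and 8.36, and those of digit 2 at 6.08, 5.93, 6.79 and 6.12. Digit 3 gave 7.51, 7.60, 7.09, 6.69 and 7.80, and digit 4 gave 8.45, 7.72, 8.49 and 8.0. All digit 2 livers except 2N lay below every other liver, and 2N was above haloperidol 3R alone. Digit 2 was lower than the mean of the other digits by 1.64 log2 units, a difference of -1.64 ± 0.19 (SE, adjusted p = 0.00073), and digit 1 was 1.0 ± 0.17 higher (adjusted p = 0.00594). Lpin1, a phosphatidate phosphatase and coactivator of fat oxidation genes, followed the same order. Lpin1 was at 10.87, 10.72, 10.35, 10.46 and 11.20 in digit 1 and at 8.81, 8.79, 9.31 and 8.64 in digit 2. It was at 10.10, 10.29, 9.32, 10.01 and 10.05 in digit 3 and at 10.70, 9.91, 10.45 and 10.72 in digit 4. The 4 digit 2 livers lay below all others, although 2N at 9.31 and placebo 3N at 9.32 nearly met. The digit 2 difference was -1.46 ± 0.19 (SE, adjusted p = 0.0025). Digits 1 and 4 did not differ past the threshold in either gene, with differences of 0.09 in Pfkfb3 (adjusted p = 0.866) and 0.27 in Lpin1 (adjusted p = 0.540). Both genes passed the F test in each of the 18 fits that left out 1 liver.

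Lrit1 and Osgin1 led the genes that were low in digit 1. Lrit1, known as a leucine-rich repeat membrane protein of the retina, had the smallest F test p together with Pfkfb3. Levels of Lrit1 were 6.98, 6.83, 6.86, 6.73 and 6.71 in digit 1 and 7.58, 7.92, 7.98 and 7.71 in digit 2. They were 7.41, 7.42, 7.28, 7.65 and 7.52 in digit 3 and 7.17, 7.25, 7.29 and 7.16 in digit 4. The means were 6.82 ± 0.11 (SD, n = 5) in digit 1 and 7.80 ± 0.19 (SD, n = 4) in digit 2, with digits 4 and 3 between them, and digit 1 did not overlap any other group. Osgin1, a growth inhibitor induced by oxidative stress, was separated in the same way. For Osgin1, digit 1 gave 9.24, 8.75, 8.79, 9.16 and 8.20 and digit 2 gave 10.43, 10.65, 10.23 and 9.96. The livers of digit 3 gave 9.99, 10.14, 10.18, 10.14 and 9.64, and those of digit 4 gave 9.51, 10.06, 9.99 and 9.87. Its digit 1 difference of -1.20 ± 0.14 (SE, adjusted p = 0.000525) was the largest fall among the digit 1 calls, and within digit 1 the haloperidol livers 1B and 1R were the highest. Ccdc117 was also below all other livers in digit 1 (-0.55 ± 0.08, adjusted p = 0.0023). These 3 genes passed the F test in each of the 18 fits that left out 1 liver.

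**Figure D3:**
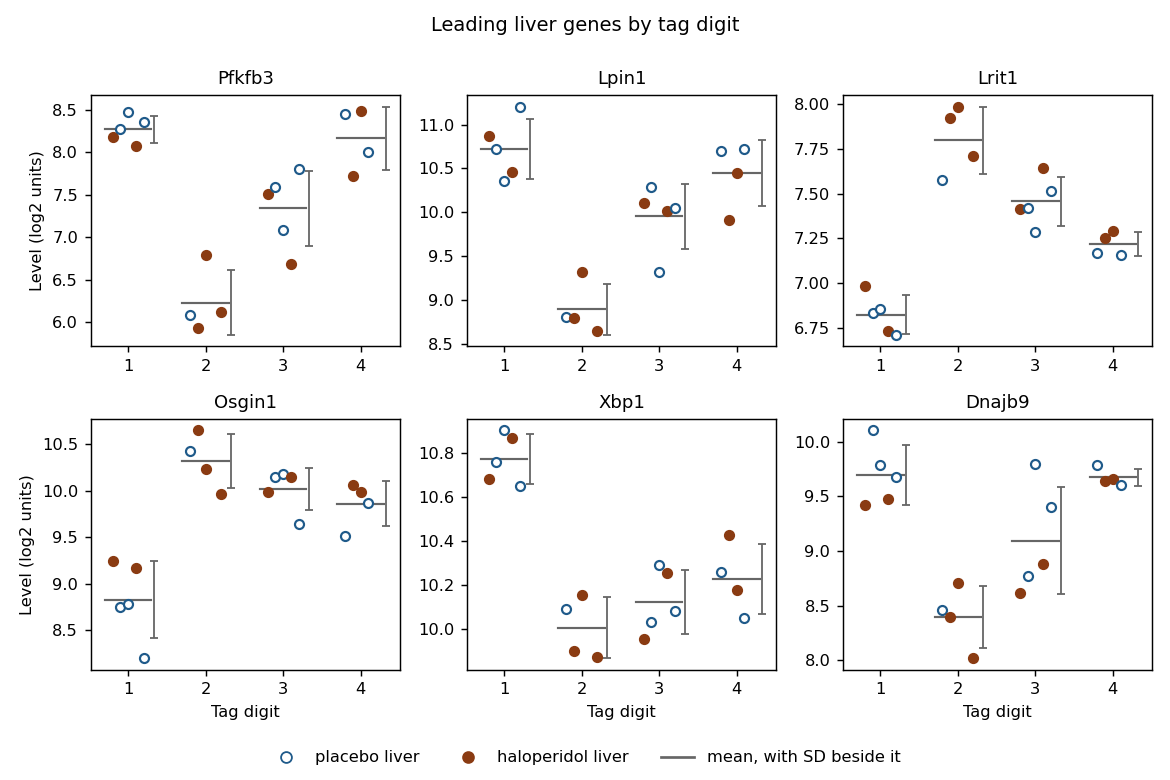
Level in log2 units of Pfkfb3, Lpin1, Lrit1, Osgin1, Xbp1 and Dnajb9 in each liver by tag digit; open points are placebo livers, filled points haloperidol livers, and grey lines the group mean with its SD. Lpin1 is lowest in all 4 digit 2 livers, Lrit1 and Osgin1 are lowest and Xbp1 is highest in all 5 digit 1 livers.

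Other genes set digit 1 apart upwards. Il13ra1, a receptor chain for interleukins 4 and 13, was 0.84 ± 0.11 higher in digit 1 (SE, adjusted p = 0.00115), with digit 1 livers at 9.23, 8.98, 8.96, 9.22 and 8.88 and the highest other liver at 8.65. Nnmt, nicotinamide N-methyltransferase, was 0.93 ± 0.12 higher (adjusted p = 0.00108), although placebo 3N at 9.86, 3L at 9.82 and 4B at 9.81 lay above haloperidol 1R at 9.78. Zfp763, a zinc finger gene, was 0.78 ± 0.11 higher in digit 1 (adjusted p = 0.00161) and lower in digit 4, at -0.66 ± 0.11 (adjusted p = 0.0284). Among genes past the digit 1 test, the largest rises were in Lcn2, Mfsd2a and Zfp931, which did not pass the F test. Lcn2, the lipocalin that binds bacterial siderophores, was at 9.98, 7.13, 8.07, 7.32 and 6.28 in digit 1 against 5.27 to 7.76 elsewhere, so that digit 1 overlapped the other digits. The difference of 1.68 ± 0.45 (SE) passed the digit 1 test (adjusted p = 0.0381) but not the F test (adjusted p = 0.153). Mfsd2a, a transporter of lysophospholipids, differed by 1.41 ± 0.36 (adjusted p = 0.0307; F test 0.115), and the zinc finger gene Zfp931 by 1.40 ± 0.33 (adjusted p = 0.0231; F test 0.0788). In Mfsd2a placebo 4R at 9.37 and 3T at 8.58 lay inside the digit 1 range (8.46 to 10.42). In Zfp931 placebo 3N at 6.10 lay above all digit 1 livers (5.20 to 5.64).

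The unfolded protein and integrated stress response list had the largest share of members past the F test among lists with at least 5 genes tested, 4 of 15 tested genes (26.7%) beside 1.11% of all genes tested, and 9 of the 15 had an unadjusted p under 0.05. The 4 were Xbp1, Dnajb9, Chac1 and Manf, and they did not share 1 order of the digits. Xbp1, the transcription factor of the pathway's Ire1 branch, was highest in digit 1. The digit 1 livers had Xbp1 at 10.68, 10.76, 10.90, 10.87 and 10.65, and those of digit 2 at 10.09, 9.90, 10.15 and 9.87. Digit 3 gave 9.96, 10.03, 10.29, 10.26 and 10.08, and digit 4 gave 10.26, 10.43, 10.18 and 10.05. The lowest digit 1 liver, 1T at 10.65, lay above the highest other liver, 4L at 10.43, and the difference was 0.66 ± 0.08 (SE, adjusted p = 0.00108). Dnajb9, a cochaperone of the chaperone Hspa5, was lowest in digit 2. Dnajb9 was at 9.42, 10.11, 9.79, 9.48 and 9.68 in digit 1 and at 8.46, 8.40, 8.70 and 8.02 in digit 2. It was at 8.62, 8.77, 9.79, 8.89 and 9.41 in digit 3 and at 9.79, 9.64, 9.66 and 9.61 in digit 4. Digit 2 differed by -0.99 ± 0.16 (adjusted p = 0.0164), and 3B at 8.62 lay inside its range of 8.02 to 8.70. Chac1, a glutathione-degrading enzyme downstream of Atf4, had all digit 2 livers below every other liver, with a digit 2 difference of -0.98 ± 0.16 (adjusted p = 0.0164) and levels of 6.32, 6.50, 6.42, 6.31 and 6.06 in digit 1, 5.11, 5.06, 5.01 and 5.18 in digit 2, 5.77, 5.37, 5.95, 5.66 and 5.71 in digit 3 and 6.26, 6.76, 5.80 and 5.59 in digit 4.

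Manf, a secreted factor of the endoplasmic reticulum, was highest in digit 4. Levels of Manf were 8.25, 8.76, 8.60, 8.0 and 8.50 in digit 1 and 8.36, 8.04, 7.72 and 7.88 in digit 2. They were 7.64, 8.12, 8.37, 7.79 and 8.28 in digit 3 and 8.67, 8.45, 8.75 and 8.94 in digit 4. Its digit 4 difference was 0.54 ± 0.09 (SE, adjusted p = 0.0284), and placebo 1L, 1N and 1T at 8.76, 8.60 and 8.50 lay within the digit 4 range. Among the other members, Sdf2l1 was 0.70 ± 0.19 higher in digit 1 and passed that test (adjusted p = 0.0355) but not the F test (0.0788), as did Atf4 with a lower level in digit 1, -0.31 ± 0.08 (adjusted p = 0.0403; F test 0.112). The chaperone gene Hspa5 had digit differences of 0.28, -0.29 and 0.21 in digits 1, 2 and 4 and an F test adjusted p of 0.117, and Creld2 reached 0.0529 with digit 4 0.95 ± 0.21 above the others. The list's median difference was 0.20 in digit 1, -0.25 in digit 2 and 0.26 in digit 4, against medians over all genes tested within 0.01 of 0. Xbp1, Dnajb9, Chac1 and Manf passed the F test without any 1 liver and with the array median as covariate, but without both 2T and 1L 0 members of the list passed, and with the array median subtracted 6 did.

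Syvn1, Eif2ak3, Tmed3 and Txndc11 are single genes outside the list and were not tested as a group. Eif2ak3 and Txndc11 were chosen after their values were seen. Syvn1, the ubiquitin ligase of endoplasmic reticulum degradation, was at 10.38, 9.62, 11.08 and 10.53 in digit 4, where 4L at 9.62 lay inside the range of the other digits (8.86 to 9.90) and the other 3 livers above it. The digit 4 difference was 1.03 ± 0.18 (SE, adjusted p = 0.0284). Eif2ak3, the sensor kinase known as Perk, differed by 0.57 ± 0.11 (adjusted p = 0.0382), and Tmed3, a cargo protein of early secretory vesicles, by 0.61 ± 0.11 (adjusted p = 0.0301). Txndc11, a thioredoxin-domain protein of the reticulum, passed the F test (adjusted p = 0.0222) with a digit 4 difference of 0.63 ± 0.12 that did not pass (adjusted p = 0.0521). Of the 18 fits that left out 1 liver, Tmed3 passed the F test in 18, Txndc11 in 13, Syvn1 in 10 and Eif2ak3 in 9.

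**Figure D4:**
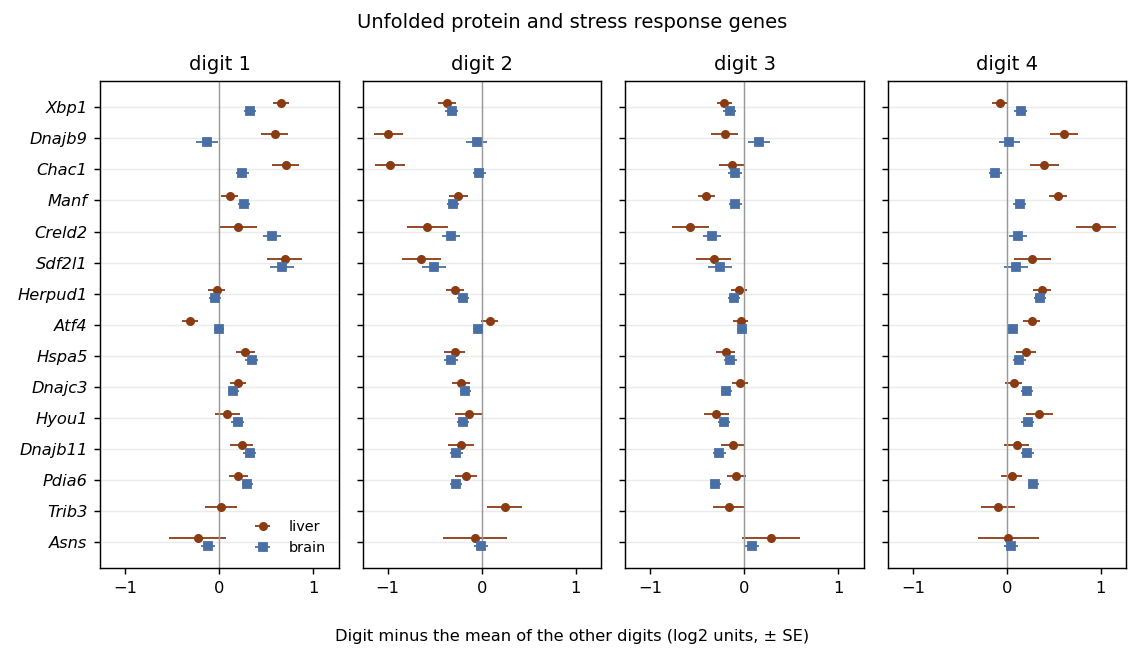
Digit minus the mean of the other digits (horizontal axes, log2 units, with SE) for the 15 tested unfolded protein and integrated stress response genes in liver (circles) and brain (squares), 1 panel for each tag digit; Trib3 was tested in liver alone. In digit 1 the liver points of Xbp1, Dnajb9, Chac1 and Sdf2l1 lie at 0.59 to 0.71, and in digit 2 those of Dnajb9 and Chac1 lie near -1.

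Some promoters of this list hold a known regulatory element that the grouping by digit did not use. The endoplasmic reticulum stress element, CCAAT and CCACG separated by 9 bases of any kind, is bound by Atf6 and Xbp1 together with a CCAAT-binding factor. It was searched on both strands in the 250 bases before the start site in RefSeq promoters of GRCm38.p6, and this motif was added after the values were seen. It occurred in 4 of the 13 list genes with a promoter (30.8%), in 16 of 9957 genes tested in liver (0.161%) and in 37 of 32851 windows in all (0.113%). The list was drawn up from known genes of this response, so its higher share is not an independent result. Of the 104 F test genes with a promoter, Syvn1 alone held it (0.962%). The 4 list genes with the element are shown because 3 of them, Hspa5, Creld2 and Pdia6, passed the F test in brain. Each is given as 99 bases around the element, 5′ to 3′ on the gene's strand and its fixed letters in capitals (in Creld2 the element is on the opposite strand).
Hspa5 (chr2:34771985-34772083, plus strand): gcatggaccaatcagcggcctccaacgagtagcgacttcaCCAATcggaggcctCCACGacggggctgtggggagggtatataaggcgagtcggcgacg
Creld2 (chr15:88819480-88819578, plus strand): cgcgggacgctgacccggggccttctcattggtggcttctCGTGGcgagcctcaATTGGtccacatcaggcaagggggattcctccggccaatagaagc
Pdia6 (chr12:17266451-17266549, plus strand): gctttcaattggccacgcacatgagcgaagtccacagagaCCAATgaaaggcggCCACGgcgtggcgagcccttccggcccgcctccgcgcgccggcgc
Dnajc3 (chr14:118937787-118937885, plus strand): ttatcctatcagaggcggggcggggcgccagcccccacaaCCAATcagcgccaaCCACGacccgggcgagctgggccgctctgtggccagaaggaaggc
In liver none of these 4 genes passed the F test, with adjusted p of 0.117 for Hspa5, 0.0529 for Creld2, 0.448 for Pdia6 and 0.258 for Dnajc3. A match is a description of the letters and does not show binding.

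Against the other digits, digit 2 differed in 12 genes (0.0956%), 7 higher (0.0558%) and 5 lower (0.0399%). The 5 lower genes were Pfkfb3, Lpin1, Zfp9, Dnajb9 and Chac1. The higher genes included Hdac5, a histone deacetylase, by 0.72 ± 0.12 (SE, adjusted p = 0.0264), Sirt4, a mitochondrial sirtuin, by 0.72 ± 0.13 (adjusted p = 0.0364), and Mir365-2. Without 2N the count rose to 366, and 4R left out gave 20. It fell to 3 without 2L or 2T, to 4 without 2B, to 6 without 1N and to 7 without 1L, 1T, 3T or 4N.

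Digit 4 differed in 13 genes (0.104%), 11 higher (0.0877%) and 2 lower (0.0159%). The largest rises were in Zfp9, a zinc finger gene (1.09 ± 0.19, SE, adjusted p = 0.0284), Syvn1 and Bag3. Bag3, a cochaperone of Hsp70 in the heat shock response, was at 9.40, 8.53, 9.49 and 9.62 in digit 4 and between 7.97 and 8.75 in the other digits, so that 4L lay within their range and the other 3 livers above it. Its difference was 0.92 ± 0.13 (adjusted p = 0.021). Ocln, the tight junction protein occludin, was lower in digit 4, -0.65 ± 0.11 (adjusted p = 0.0284), with 4B, 4N and 4R at 6.74, 6.84 and 6.83 and 4L at 7.50, inside the range of the other digits (7.30 to 7.91). Liver 4L thus stood with the other digits in Syvn1, Bag3 and Ocln. Bag3 passed the F test in 18 of the 18 fits that left out 1 liver, Zfp9 in 17 and Ocln in 8. Without it the digit 4 count was 70. The count was 0 without 2B, 4B, 4N or 4R, 1 without 3R or 3T and 8 without 1T.

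Digit 3 gave 0 genes against the other digits in limma's test (783 at an unadjusted p under 0.05, smallest adjusted p 0.775) and 0 under each liver left out. Its 6 genes of smallest unadjusted p included Tmed3, Manf and Slc39a14. Slc39a14, a zinc and iron transporter, passed the F test (adjusted p = 0.0319) and was at 9.45, 9.71, 9.14, 9.83 and 9.42 in digit 3 and 10.33, 9.85, 10.10, 10.20 and 10.07 in digit 1. It passed in 6 of the 18 fits that left out 1 liver. Digits 2 and 3 did not differ from each other in any gene past the threshold (0 genes, 1128 at an unadjusted p under 0.05), and digits 3 and 4 differed in 2 (0.0159%) and digits 2 and 4 in 11 (0.0877%).

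Among the core clock genes, 0 of 13 tested passed the F test and 4 had an unadjusted p under 0.05, beside 1.11% and 20.4% of all genes tested. Clock output, the genes driven by the clock, had 1 of 13 past the F test, Lpin1, and 6 unadjusted. Arntl is the clock's activator. For Arntl, digit 1 gave 4.85, 5.81, 6.13, 6.32 and 6.0 and digit 2 gave 7.39, 8.19, 5.57 and 7.13. The livers of digit 3 gave 6.26, 6.07, 7.77, 6.63 and 7.15, and those of digit 4 gave 5.53, 7.03, 6.53 and 5.63. Haloperidol 2N at 5.57 lay with digit 1 while 2L reached 8.19, and the digit 1 difference of -0.86 ± 0.37 (SE) did not pass (adjusted p = 0.156; F test 0.26). Npas2, its relative, had the same livers at its ends of digit 2, with 2L at 6.87 and 2N at 4.04 (F test adjusted p = 0.258).

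Ciart is a repressor of the loop. The digit 1 livers had Ciart at 8.27, 7.90, 7.65, 7.40 and 8.30, and those of digit 2 at 5.67, 4.94, 7.33 and 5.83. Digit 3 gave 6.32, 7.61, 4.96, 6.16 and 6.02, and digit 4 gave 7.40, 6.34, 5.99 and 8.88. Digit 1 lay at 7.40 to 8.30, with 3L at 7.61 and 4R at 8.88 inside or above that range and 4B at 7.40 and 2N at 7.33 at its lower edge. The difference of 1.40 ± 0.43 did not pass (adjusted p = 0.0574). Usp2, a deubiquitinase under clock control, was 1.24 ± 0.34 higher in digit 1 (adjusted p = 0.0387; F test 0.109), and Nr1d2, a repressor of Arntl, 0.46 ± 0.13 higher (adjusted p = 0.044; F test 0.0788). Nfil3, which is expressed in antiphase to the genes of the D-box, was lower, -0.56 ± 0.15 (adjusted p = 0.0341; F test 0.105). Per1 differed by 0.66 ± 0.27 (adjusted p = 0.141) and Bhlhe41 by 0.89 ± 0.30 (adjusted p = 0.0833), and neither passed. Per2, Per3, Cry2, Rora, Clock, Csnk1d, Csnk1e, Tef, Hlf, Bhlhe40, Wee1, Noct, Nampt and Avpr1a had F test adjusted p of 0.370 or more. Without 2N, Npas2, Nr1d2, Ciart, Usp2 and Bhlhe41 passed the F test (adjusted p = 0.0426, 0.00481, 0.0405, 0.0107 and 0.0324). In that fit 545 of all 12547 genes passed, beside 139 with all livers. Per1 passed without 4L (0.0318) and Nfil3 without 3L (0.0389), in fits where 398 and 225 of all genes passed, and Arntl passed in 0 of the 18 fits. The E-box CACGTG, the site of Arntl and its partners, was in the promoters of Per1, Cry1 and Ciart, 3 of 11 core clock genes with a promoter (27.3%), of Tef and Bhlhe41, 2 of 10 clock output genes (20%), and of 972 of 9957 genes tested (9.76%). The promoter of Pfkfb3 also held it, as did those of 7 other F test genes, together 8 of 104 (7.69%).

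**Figure D5:**
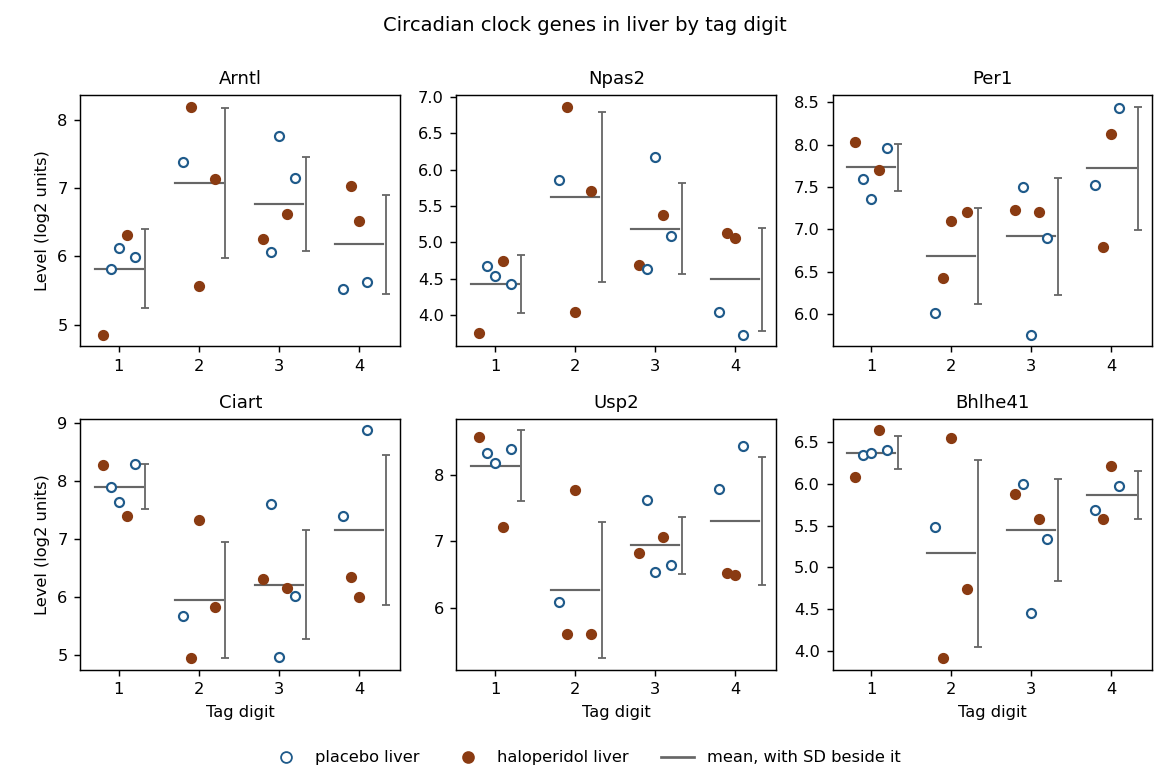
Level in log2 units of the circadian genes Arntl, Npas2, Per1, Ciart, Usp2 and Bhlhe41 in each liver by tag digit; open points are placebo livers, filled points haloperidol livers, and grey lines the group mean with its SD. None passed the F test, and in digit 2 the liver 2N lies toward the digit 1 level in Arntl, Npas2, Ciart, Usp2 and Bhlhe41 while 2L lies farthest from it in Arntl, Npas2, Ciart and Bhlhe41.

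The growth hormone and IGF axis had 1 of 12 genes past the F test (8.33%) and 8 at an unadjusted p under 0.05, beside 1.11% and 20.4% of all genes tested. Socs2, the feedback inhibitor that growth hormone induces through Stat5, was the one. Socs2 was at 9.33, 9.13, 9.59, 9.90 and 8.96 in digit 1 and at 7.14, 8.25, 8.28 and 8.22 in digit 2. It was at 8.37, 7.59, 8.94, 8.24 and 8.01 in digit 3 and at 8.68, 9.30, 8.76 and 7.36 in digit 4. Haloperidol 4L at 9.30 lay inside the digit 1 range, and digit 1 was 1.23 ± 0.23 higher (SE, adjusted p = 0.00855). Against the other digits, 5 members were higher in digit 1 and 1 lower, beside 2.84% higher and 3.28% lower of all genes. The hepatic hormone gene Igf1 rose by 0.27 ± 0.08 (adjusted p = 0.0489), its carrier Igfals by 0.46 ± 0.13 (adjusted p = 0.0409), and the receptor genes Lifr and Egfr by 0.41 ± 0.10 and 0.49 ± 0.11 (adjusted p = 0.0264 and 0.0222), while the signal transducer Stat5a was lower, -0.41 ± 0.12 (adjusted p = 0.0459). After subtraction of array medians 5 members were higher in digit 1 and 0 lower, and 3 passed the F test. With the array median as covariate 1 was higher and 0 passed the F test, and 0 passed it without 2T and 1L. Socs2 passed in 10 of the 18 fits that left out 1 liver, and its adjusted p was 0.164 with that covariate. The list's median difference in digit 1 was 0.20.

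Cyp17a1, a steroid hydroxylase that is higher in female liver, was the 1 of 8 female-biased genes past the F test, beside 1.11% of all genes. Levels of Cyp17a1 were 6.95, 7.19, 6.62, 6.37 and 7.34 in digit 1 and 5.30, 5.35, 5.80 and 5.03 in digit 2. They were 5.05, 6.01, 6.31, 5.96 and 5.65 in digit 3 and 6.08, 5.46, 4.80 and 5.70 in digit 4. Digit 1 lay above every other liver, from 6.37 against a highest other value of 6.31, and the difference was 1.27 ± 0.18 (SE, adjusted p = 0.00257). It passed the F test in 17 of the 18 fits that left out 1 liver, and not with the array median as covariate (adjusted p = 0.0622). Among male-biased genes 0 of 16 passed the F test. All 18 livers had the Y-linked gene Kdm5d between 7.33 and 8.15 and Xist between 1.85 and 2.79.

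Of 21 acute phase genes, which the liver raises in inflammation, Apcs and Steap4 passed the F test (9.52%, beside 1.11% of all genes) and 4 were higher in digit 1 (2.84% of all genes were). Apcs, serum amyloid P, rose by 1.08 ± 0.20 (SE, adjusted p = 0.00873), Steap4, a metalloreductase, by 0.73 ± 0.15 (adjusted p = 0.0131), and Crp, C-reactive protein, by 0.46 ± 0.11 (adjusted p = 0.0216), with Lcn2 as the fourth. In Steap4 placebo 4B at 10.92 lay above all digit 1 livers (10.38 to 10.88), and 4N at 10.65 lay inside their range. In Apcs 4L at 9.33, 3L at 9.11 and 3N at 8.98 lay above 1T at 8.93. Saa2 differed by 1.88 ± 0.60 and did not pass (adjusted p = 0.0673). With the array median as covariate 0 members passed the F test and 0 were higher in digit 1. Steap4 passed the F test in 13 of the 18 fits that left out 1 liver and Apcs in 7. The neutrophil and monocyte markers had a median level of 4.32 in digit 1 and of 3.92, 3.97 and 4.0 in digits 2, 3 and 4. Their mean level over 13 markers was 3.96 to 4.37 in digit 1, 3.82 to 3.99 in digit 2, 3.80 to 4.07 in digit 3 and 3.90 to 4.13 in digit 4. Digit 1 thus overlapped every other digit, near the mean level of 3.92 below which genes were left out. Of the 13 markers 4 were tested, 0 passed the F test and 2 had an unadjusted p under 0.05. Their relation to the acute phase genes and their part in the result were not tested.

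Fkbp5, a glucocorticoid-induced cochaperone of the glucocorticoid receptor, was the 1 of 13 glucocorticoid response genes past the F test (adjusted p = 0.0289). Over all genes tested 1.11% passed. Digit 1 livers were at 8.51, 7.89, 7.44, 7.41 and 8.37 and the other livers between 6.51 and 7.51, where 2N alone lay above 1R and 1N, and the digit 1 difference was 1.01 ± 0.18 (SE, adjusted p = 0.00765). It passed the F test in 13 of the 18 fits that left out 1 liver, and not with the array median as covariate (adjusted p = 0.125). Cirbp, a cold-induced RNA-binding protein chosen after its values were seen, was lower in digit 1, -0.90 ± 0.16 (adjusted p = 0.00765). Idi1, an enzyme of cholesterol synthesis, rose by 0.93 ± 0.20 (adjusted p = 0.0179) with an F test adjusted p of 0.0509. It was the only 1 of 20 cholesterol synthesis genes past the digit 1 test, beside 6.11% of all genes. In the F test 0 of the 20 passed, while 2 passed it with array medians subtracted. Fatty acid synthesis (16 genes), fasting response (13), bile acid synthesis and transport (15) and drug-metabolising cytochromes P450 (28) each had 0 genes past the F test, and at an unadjusted p under 0.05 they had 2, 5, 1 and 4.

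Of 107 microRNA genes tested, 3 passed the F test (Mir568, Mir421 and Mir365-2) and 22 had an unadjusted p under 0.05, beside 1.11% and 20.4% of all genes tested, so that the unadjusted share was near the background. In digit 1, 2 of the 107 were higher and 5 lower, beside 2.84% higher and 3.28% lower of all genes. With the array median as covariate 1 passed the F test, and 1 was higher and 1 lower in digit 1. Whether these array probes report the hairpin transcript or the mature microRNA is not stated in the sources used here. Mature sequences of the 3 genes, as listed in RefSeq on GRCm38.p6, are shown with the seed, bases 2 to 8, in capitals. The seed is marked because it sets which targets each could bind. For Mir421 only miR-421-5p was listed, so a product of the other arm of its hairpin is not shown.
mmu-miR-568 (chr16:43640665-43640684, plus strand): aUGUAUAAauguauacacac
mmu-miR-421-5p (chrX:103572966-103572986, minus strand): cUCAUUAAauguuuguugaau
mmu-miR-365-2-5p (chr11:79726428-79726450, plus strand): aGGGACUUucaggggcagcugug
mmu-miR-365-3p (chr11:79726467-79726488, plus strand): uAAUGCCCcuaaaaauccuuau
No 2 of these share a seed. Mir568 was higher in all digit 1 livers, at 7.34, 7.11, 7.36, 7.05 and 6.90 against 5.60 to 6.70 elsewhere, a difference of 1.03 ± 0.13 (SE, adjusted p = 0.00108). Mir421 was lower in digit 1, -1.09 ± 0.17 (adjusted p = 0.0034), where 1R at 3.99 exceeded placebo 3N at 3.73 and the other 4 livers lay at 2.86 to 3.43, below all others. Those 4 lie under 3.92, the mean level below which genes were left out, so the size of this difference is uncertain. Mir365-2 ran from digit 1 (5.60, 4.90, 5.31, 5.53 and 4.84) to digit 2 (6.69, 7.08, 6.30 and 6.87), with 2N at 6.30 below 4R at 6.44. Mir568 and Mir365-2 passed the F test in each of the 18 fits that left out a liver and Mir421 in 15.

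Among 52 small nucleolar RNA genes, which guide chemical modification of ribosomal and spliceosomal RNA, 8 were lower in digit 1 and 0 higher, beside 3.28% lower and 2.84% higher of all genes. The lowest was Snord14e (-1.03 ± 0.25, SE, adjusted p = 0.0255), followed by Snord37, Snora70, Snora31, Snord15a, Snora16a, Snord35b and Snord38a at -0.75 to -0.56. Snora16a alone passed the F test (adjusted p = 0.0289). With array medians subtracted, 7 were lower and 1 higher, and with the array median as covariate 0 were lower, 0 higher and 0 passed the F test. Snora16a passed it in 8 of the 18 fits that left out 1 liver. The list's median difference was -0.27, and -0.17 after that subtraction. Of 70 cytosolic ribosomal protein genes, 0 passed the F test and 5 were higher in digit 1, Rps19, Rps14, Rpl10a, Rpl12 and Rpl5, by 0.23 to 0.46, beside 2.84% of all genes. With the array median as covariate 0 were.

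Lists that mark the cells a liver dissection could hold had 0 genes past the F test, from hepatocytes (11 tested), Kupffer cells (14) and liver endothelial cells (15) to stellate cells and fibroblasts (15), cholangiocytes (7), B cells (6), T and NK cells (7) and mesothelium (7). With 1.11% of all genes past it, lists this short cannot show by that count that cell content was equal. At an unadjusted p under 0.05 they had, in the same order, 0, 0, 2, 3, 4, 0, 1 and 1 genes, beside 20.4% of all genes. In bulk tissue, fewer cells of a type and less RNA per cell cannot be told apart. The mean of the hepatocyte markers lay between 12.52 and 12.59 on all livers. Kupffer cell markers ranged from 7.24 to 8.0 and overlapped between all digits. Stellate and fibroblast markers were at 6.91 to 7.45 in digit 4 and 7.21 to 7.82 in the other digits, and cholangiocyte markers at 4.40 to 4.70 in digit 4 and 4.59 to 5.03 elsewhere. Both sets of ranges overlapped, and the part of these markers in the digit 4 results was not tested. Of 14 pericentral hepatocyte genes tested, 3 were lower in digit 1, beside 3.28% of all genes. These were Glul, Cyp1a2 and Axin2 (-0.24, -0.27 and -0.53), of which 0 stayed past the threshold with array medians subtracted.

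The same digits were compared in brain, where all 20 tags had an array, 5 for each digit. The brain F test gave 17 of 12547 genes (0.135%) and 1624 (12.9%) at an unadjusted p under 0.05. Of the 139 liver genes, 120 were tested in brain, 29 of them (24.2%) had an unadjusted brain p under 0.05 and 1, Xbp1, passed. The tags shared by the tissues come from the same mice only if a tag names a mouse, which the labels do not state. One brain array, haloperidol 4T, had Alb at 11.11, the highest of the brains, and without it 14 genes passed. The count was 7, 9, 3 and 5 without 1L, 1N, 1R and 1T, 5, 11, 11, 9 and 11 without 2B, 2L, 2N, 2R and 2T, and 6, 5, 4 and 8 without 3B, 3L, 3N and 3R. It was 5 without 4B, 73 without 4L and 46 without 4R. Restricted to the 18 shared tags it was 5. Against the other digits, brain digit 1 gave 69 genes (0.55%), digit 4 gave 10 (0.0797%), and digits 2 and 3 gave 0.

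The unfolded protein list had the most members past the brain F test. Of the 15 list genes tested in brain, 14 of them also tested in liver, 5 passed, Hspa5, Creld2, Pdia6, Xbp1 and Dnajb11, and 11 had an unadjusted p under 0.05. Over all genes tested in brain these shares were 0.135% and 12.9%. For Xbp1 the digit 1 brains were at 10.28, 10.52, 10.42, 10.69 and 10.69, the digit 2 brains at 10.02, 9.97, 10.04, 10.08 and 10.05, the digit 3 brains at 10.04, 10.05, 10.22, 10.19 and 10.28 and the digit 4 brains at 10.38, 10.25, 10.44, 10.32 and 10.52. Digits 1 and 4 overlapped and lay above digit 2, which 3B and 3L joined. The digit 1 difference of Xbp1 was 0.33 ± 0.07 (SE) in brain beside 0.66 ± 0.08 in liver. Pdia6, a protein disulfide isomerase, had digits 1 and 4 at 9.07 to 9.37 and digits 2 and 3 at 8.68 to 9.02 without overlap (brain F test adjusted p = 0.00661), beside a liver F test adjusted p of 0.448. Hspa5 had a digit 1 difference of 0.35 ± 0.07 in brain and 0.28 ± 0.10 in liver. With single brains left out, Pdia6 kept its call in 20 of 20 fits, Creld2 and Dnajb11 in 8, Xbp1 in 6 and Hspa5 in 5. No member of the list passed the test of a difference between tissues (smallest adjusted p 0.0646, Chac1).

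Of the 17 brain genes, 15 were tested in liver, 1 passed the F test there and 5 had an unadjusted p under 0.05. Inhba, an inhibin and activin subunit, was 1.02 ± 0.12 higher in digit 1 brains (brain F test adjusted p = 0.00328) and 0.04 ± 0.20 in liver (F test 0.98). Cisd1, a mitochondrial iron-sulfur protein, was highest on average in digit 4 brains, at 9.81, 10.05, 10.21, 9.69 and 10.07 (difference 0.47 ± 0.06), with a liver digit 4 difference of 0.01 ± 0.07. The tests of the tissue difference did not pass for either gene (adjusted p = 0.128 and 0.141).

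Whether the digit differences were unlike in liver and brain was tested on the liver minus brain value of each of the 18 shared tags. This gave 7 of 10869 genes (0.0644%): Pfkfb3, Mir421, Lpin1, Carmil1, Plin4, Zfp518a and Prg4. In Pfkfb3 the digit 2 difference was -1.64 ± 0.19 in liver and -0.12 ± 0.06 in brain (adjusted p = 0.00629 for the tissue difference), and in Lpin1 -1.46 ± 0.19 and 0.08 ± 0.07 (adjusted p = 0.00672). Mir421, with digit 1 livers at the dim levels given above, ran opposite ways in digit 1, at -1.09 ± 0.17 in liver and 0.38 ± 0.11 in brain (adjusted p = 0.00629). The count was 3 without tag 1L, 4 without 1N, 2 without 2B or 2T, 16 without 4N, 41 without 2N and 1332 without 4L.

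Whether the treatment difference varied with the digit was tested as an interaction, which gave 0 genes in limma (240 at an unadjusted p under 0.05, smallest adjusted p 1), but digit 2 held 1 placebo liver, and the fit without it could not be made. The genes of smallest interaction p were Aplnr, Tppp3, Pbx3, Cby1 and Gm5771. With digit as a covariate, haloperidol against placebo in liver gave 0 genes (1325 at an unadjusted p under 0.05, smallest adjusted p 0.152).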

How the data were processed

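Liver and whole brain RNA of haloperidol and placebo mice was measured on Affymetrix arrays. The submitters' processing notes name RMA and Affymetrix Expression Console, without versions, for the deposited log2 values of the authors. RMA as usually run corrects background, gives arrays a common distribution and summarises probe sets, which can hide a shift shared by most genes. The deposited liver arrays nonetheless differed in median, from 4.70 to 5.05, and in interquartile range, from 3.65 to 4.11. These values thus hold differences across whole arrays, whose source was not tested. Neither the array model nor a filter is stated in those notes or the labels.

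The table held 35556 probes and 0 missing values. Of these, 21218 had 1 gene symbol, 1881 several and 12457 none, by GEO's platform annotation, and 21185 matched RefSeq by Entrez identifier. Each of 18820 genes was represented by 1 probe, and the dimmest 33.3% of genes by mean level (below 3.92 in liver and 5.52 in brain) were left out. In R 4.3.3, limma 3.58.1 fitted the 4 tag digits with treatment as a covariate on the 18 livers (13 residual degrees of freedom) and separately on the 20 brains (15). The F test compared the 4 digits, contrasts compared a digit with the mean of the other 3, and p-values were adjusted by Benjamini-Hochberg over all genes tested at 0.05. Errors of differences are SE. Array measures were compared with a two-sided exact permutation test. The code was tested on simulated data. The number of arrays limits the precision, and p-values set the digit differences against the spread between mice of a digit. As each digit is a single group, they do not cover variation between groups of the kind a digit may mark.

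The genes named were the 12 of smallest F test p, the 3 largest differences each way for each digit (or the smallest p where none passed), up to 4 passing members of the 6 lists with the largest share passing, the clock lists, the 8 liver genes of smallest brain p, the 5 of smallest interaction p, and genes said to be chosen after their values were seen. Further members of the lists are named to account for their counts. The grouping by digit, the 47 gene lists and the tests were chosen with earlier results of these data known. Alternatives are given in the closing section.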

Additional observations from a re-analysis of the deposited data

Results flagged for a closer look

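In 35 named genes, 5 of 140 digit groups (3.57%) held a liver whose gap to the nearest other liver of its digit was large against the group's range; chance flags about 1 in 20 groups. In digit 2 these were Zfp763 in haloperidol 2N at 5.51, Il13ra1 in haloperidol 2T at 7.64 and Socs2 in placebo 2B at 7.14. In digit 4 they were Mfsd2a in placebo 4R at 9.37 and Ocln in haloperidol 4L at 7.50. The flags took no account of treatment, and 2B was the only placebo liver of digit 2.

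The digit differences of 7 genes differed between liver and brain in limma's F test on the liver minus brain values of the 18 shared tags. The adjusted p was 0.00629 for Pfkfb3 and for Mir421, 0.00672 for Lpin1, 0.0206 for Carmil1, 0.0425 for Plin4, 0.0486 for Zfp518a and 0.0496 for Prg4. In digit 1 the liver and brain differences were -0.90 and 0.21 for Carmil1, -0.54 and 0.65 for Plin4, 1.17 and -0.03 for Zfp518a, and 0.87 and -0.37 for Prg4.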

How the results depend on the processing

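The liver F test gave 139 genes in the values as deposited. It gave 245 with array medians subtracted, 246 after quantile normalization, 217 with no treatment term, 255 with a trended robust prior, 1692 with array weights and 23 with the array median as covariate. Without digit 1 it gave 0, without digit 2 30 and without digit 3 521. It gave 0 in placebo livers alone, 0 in haloperidol livers alone and 9 without 2T and 1L, and the cause of these changes was not tested. With the tag letter as a replicate block it gave 57 genes, of which 46 were among the 139. Residuals of same-letter livers of different digits correlated at -0.288 to 0.316 (median 0.076). Those of livers unlike in letter and digit correlated at -0.518 to 0.427 (median -0.0149). Whether the letters pair the livers was not tested. The digit 1 count of 767 was 60 with the array median as covariate and 0 in either treatment alone. Digit 4 gave 29 genes after quantile normalization and 6 with the replicate block, and digit 2 gave 22 with that block. The brain F test gave 9 genes with no filter on dim genes, 5 on the shared tags and 6 with the replicate block, and the liver minus brain test 12 with no filter. With 1 liver left out in turn the ranges were 29 to 545 for the F test, 94 to 1290 for digit 1, 3 to 366 for digit 2, 0 to 0 for digit 3 and 0 to 70 for digit 4. For the brain F test the range was 3 to 73, for liver minus brain 2 to 1332, and for the interaction 0 in 17 fits. The F test count moved by less than 1.5 times with no filter (113), a stricter filter on dim genes (200), the mean of a gene's probes (135), the most variable probe (147) and digit 4 left out (153). No difference of a named gene past the F test changed sign, but the balance of digit 1 calls did, from 46.4% higher as deposited to 81.5% higher with array medians subtracted. Leaving out 2T and 1L, and the alternatives of the digit 1 test by array median or treatment, were chosen after seeing the data.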
